A study of Mus musculus with 10 samples.

Results

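The 9 genes described here build plasma lipoproteins, and their expression was followed through the differentiation of mouse embryonic stem cells. They are the apolipoprotein genes Apoa1, Apoa2, Apoa4, Apob, Apoc2, Apoc3, Apoe and Apom, together with Mttp, which encodes the microsomal triglyceride transfer protein. They are 9 of the 18193 genes measured. They were chosen by name after earlier results of these data were known, which include their response to DCI. Their 16 probe sets were those annotated to 1 of these symbols and to no other, and a gene's value is that of its brightest probe set by mean. The C57BL/6 cells were analysed after 8, 17 or 24 days of differentiation, with 1 array per condition and no replicate arrays. At day 8 there was an array with keratinocyte growth factor (KGF, an epithelial mitogen also known as FGF7) and a control array. At days 17 and 24 there were 4 arrays each, with KGF and DCI, DCI alone, KGF alone, and neither (control). The label DCI is read here as dexamethasone together with raised cAMP, since the title of the series names both. The title places the aim in making alveolar type II cells of the lung from pluripotent cells. Differentiation itself is shared by all 10 conditions, and the labels give no genetic change, cell sorting or pooling.

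Lipoproteins carry triglyceride and cholesterol through blood inside a shell of phospholipid and apolipoproteins. Apolipoprotein B is the scaffold of chylomicrons and of very low density particles, and the microsomal triglyceride transfer protein loads it with lipid in the endoplasmic reticulum. The A proteins belong mainly to high density lipoprotein, the C proteins set the activity of lipoprotein lipase, and apolipoprotein E is a ligand of the LDL receptor family. In the embryo these particles are made by the visceral endoderm of the yolk sac and then by the fetal liver and intestine, whereas apolipoprotein E is also made by macrophages and glia.

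Values are log2 expression made with RMA, on which the median gene value was 6.67 and the lower quartile 4.54. A difference of 1 is a 2-fold difference. Differences were tested in limma on all 10 arrays, with errors given as standard errors and Benjamini-Hochberg p-values adjusted over all 18193 genes, with a threshold of 0.05. The KGF arrays served as repeats of the arrays without KGF, so the p-values measure only the spread between these arrays, and the labels do not say whether the cultures were independent. In RNA from whole cultures, fewer cells of a type and less RNA per cell cannot be told apart. The pluripotency genes Pou5f1 and Nanog lay between 3.93 and 6.24 and between 4.48 and 6.85 on the 10 arrays, and Zfp42, another, between 4.32 and 6.43. The lung lineage factor Nkx2-1 lay between 4.46 and 5.00. Sftpc, for a surfactant protein of alveolar type II cells, had 4.13 with KGF and 4.34 in the control at day 8, 8.03 with KGF and DCI, 5.40 with DCI alone, 5.46 with KGF and 4.38 in the control at day 17, and 7.34, 6.05, 6.89 and 5.29 in the same order at day 24. The Actb control probe sets differed more between the 3′ and 5′ ends on the day 8 control array (1.05) than on the other 9 arrays (0.46 to 0.62).

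Between day 8 and day 17 without DCI, Apoa2, Apoe, Apoa4, Apoc3, Apoc2 and Apoa1 rose and Apom and Apob fell. Over all genes 42.9% changed in that comparison, 21.2% upwards and 21.6% downwards. Apoa2, which encodes a protein of high density lipoprotein, read 8.95 with KGF and 9.24 in the control at day 17, against 5.19 with KGF and 5.57 in the control at day 8. Its difference was 3.71 ± 0.11, or 13.1-fold (adjusted p = 1.03e-09). Apoe read 11.77 and 11.73 at day 17, against 9.97 and 9.55 at day 8 (1.99 ± 0.11, adjusted p = 1.24e-07). Apoc3, for an inhibitor of lipoprotein lipase, was higher by 1.73 ± 0.13 and Apoc2, for the activator of the same lipase, by 1.63 ± 0.20. Apoa1, for the main protein of high density lipoprotein, was already at 9.77 with KGF and 9.62 in the control at day 8, and its rise was 0.56 ± 0.13 (adjusted p = 0.00429). Apom, for a high density lipoprotein protein that carries sphingosine 1-phosphate, went the other way, with 6.84 with KGF and 6.69 in the control at day 17, against 8.35 and 8.74 at day 8 (-1.78 ± 0.20, adjusted p = 2.77e-05). Apob read 6.96 with KGF and 7.21 in the control at day 17, against 8.07 and 8.30 at day 8 (-1.10 ± 0.10, adjusted p = 6.85e-06). The groups did not overlap for any of these genes. Mttp had 7.15 and 7.23 at day 17, against 7.55 and 7.48 at day 8, and did not pass (-0.33 ± 0.16, adjusted p = 0.122). Without the day 17 control array the Apoa1 difference was 0.33 and did not pass (adjusted p = 0.0597).

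From day 17 to day 24 without DCI, Apoa4, Apoc3 and Apob rose and no member fell, where 24.2% of all genes changed, 10.2% upwards and 14.0% downwards. Apoa4, for an apolipoprotein of chylomicrons and high density lipoprotein, read 9.59 with KGF and 10.04 in the control at day 24, against 7.01 and 8.11 at day 17 (2.26 ± 0.21, adjusted p = 3.62e-05). Apoc3 read 7.41 and 7.61 at day 24, against 5.94 and 6.42 at day 17 (1.33 ± 0.13). Apob read 7.86 and 8.01 at day 24, against 6.96 and 7.21 at day 17 (0.85 ± 0.10, adjusted p = 0.000215). The dimmer Apob probe set gave 0.43 ± 0.19 and did not pass when tested by itself in limma (adjusted p = 0.164). Against day 8, Apob at day 24 did not pass (-0.26 ± 0.10, adjusted p = 0.0569), whereas Apoa4 stood 4.29 ± 0.21, or 19.6-fold, above day 8. The other Apoa4 probe set gave 3.59 ± 0.25. Against day 8, 5 of the 9 genes were higher at day 24 and 2, Apom and Mttp, were lower, where 54.0% of all genes changed, 25.7% upwards and 28.3% downwards. The Mttp call (-0.42 ± 0.16, adjusted p = 0.0439) was lost when any 1 of the 6 arrays without DCI was left out (-0.29 to -0.55, adjusted p = 0.0506 to 0.281). These comparisons share arrays with each other and with the DCI comparisons of the same days.

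**Figure D1:**
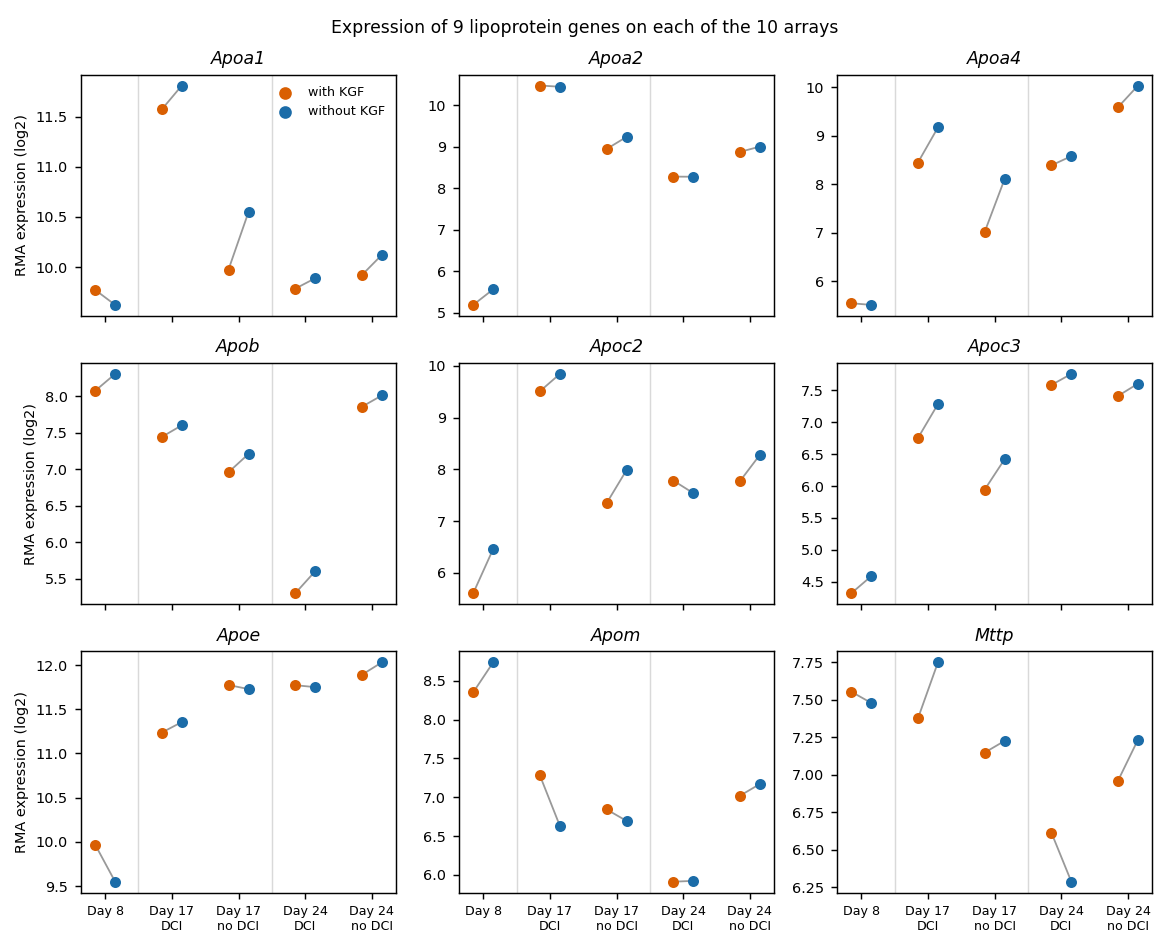
Expression of the 9 genes on each of the 10 arrays. The vertical axis is RMA expression on the log2 scale, with its own range in each panel and not starting at 0, orange points are arrays with KGF, blue points arrays without KGF, and a grey line joins the 2 arrays of a day and DCI state. With DCI, Apoa1, Apoa2 and Apoc2 peak at day 17, and Apob, Apom and Mttp have their lowest arrays at day 24.

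At day 17 DCI raised 6 of the 9 genes, Apoc2, Apoa1, Apoa2, Apoa4, Apoc3 and Apob, and lowered Apoe. Over all genes 7.60% changed, 4.46% upwards and 3.14% downwards. The median difference of the 9 genes was 0.84, against -0.01 over all genes. Apoc2 had the widest difference of the 9. It read 9.51 with KGF and DCI and 9.85 with DCI alone, against 7.35 with KGF and 7.99 in the control, a rise of 2.01 ± 0.20 or 4.03-fold (adjusted p = 0.000118). Apoa1 read 11.57 with KGF and DCI and 11.81 with DCI alone, against 9.98 with KGF and 10.55 in the control (1.43 ± 0.13, 2.69-fold, adjusted p = 5.67e-05). Its other 3 probe sets gave 1.43 to 1.49. Apoa2 read 10.47 and 10.44 with DCI, against 8.95 with KGF and 9.24 in the control (1.37 ± 0.11, adjusted p = 2.93e-05). For these 3 genes both arrays with DCI were the highest of the 10.

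Apoa4 read 8.45 with KGF and DCI and 9.17 with DCI alone at day 17, against 7.01 with KGF and 8.11 in the control (1.25 ± 0.21, adjusted p = 0.00384). The KGF arrays were the lower ones on both sides, so that the array with KGF and DCI lay 0.34 above the control. Apoc3 read 6.75 with KGF and DCI and 7.29 with DCI alone, against 5.94 with KGF and 6.42 in the control (0.84 ± 0.13, adjusted p = 0.00282). Without the day 17 array with DCI alone, Apoa4 was higher by 1.10 (adjusted p = 0.0707) and Apoc3 by 0.71 (adjusted p = 0.0729).

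The scaffold gene Apob and the lipid loading gene Mttp had smaller differences at day 17. Apob read 7.44 with KGF and DCI and 7.60 with DCI alone, against 6.96 with KGF and 7.21 in the control (0.44 ± 0.10, adjusted p = 0.0258). That call was lost when any 1 of the 4 day 17 arrays was left out (0.40 to 0.48, adjusted p = 0.117 to 0.236), and the dimmer Apob probe set gave 0.12 ± 0.19. Mttp had 7.38 with KGF and DCI and 7.75 with DCI alone, against 7.15 with KGF and 7.23 in the control, and did not pass (0.38 ± 0.16, adjusted p = 0.221). Apom had 7.28 and 6.63 with DCI, against 6.84 and 6.69 without, and its groups overlapped (0.19 ± 0.20, adjusted p = 0.713).

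At day 24 none of the 9 genes was higher with DCI and 5 were lower, Apob, Apoa4, Apom, Apoa2 and Mttp. Over all genes 16.4% changed, 6.58% upwards and 9.79% downwards, and the median of the 9 differences was -0.65, against -0.01 over all genes. Apob read 5.30 with KGF and DCI and 5.61 with DCI alone, against 7.86 with KGF and 8.01 in the control, a fall of -2.48 ± 0.10 or 5.58-fold (adjusted p = 2.02e-07). Those 2 arrays with DCI were the lowest of the 10 for Apob. The other Apob probe set, whose values lay between 3.76 and 5.17 over the 10 arrays, gave -0.59 ± 0.19 and did not pass when tested by itself (adjusted p = 0.0869). Apoa4 read 8.39 and 8.58 with DCI, against 9.59 and 10.04 without (-1.33 ± 0.21, adjusted p = 0.00147), and its other probe set gave -1.31 ± 0.25. Apom read 5.91 and 5.92 with DCI, against 7.02 and 7.17 without (-1.18 ± 0.20, adjusted p = 0.00212), with its other probe set at -2.08 ± 0.17.

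Mttp read 6.61 with KGF and DCI and 6.29 with DCI alone at day 24, against 6.96 with KGF and 7.24 in the control (-0.65 ± 0.16, adjusted p = 0.0169). Its other probe set gave -0.79 ± 0.22. The Mttp call was lost without the control array (-0.52, adjusted p = 0.162) or without the array with DCI alone (-0.40, adjusted p = 0.174) of that day. Apoa2 read 8.28 on both arrays with DCI, against 8.88 with KGF and 9.005 in the control (-0.66 ± 0.11, adjusted p = 0.00211). Apoa1, Apoc2 and Apoc3 did not pass at day 24, at -0.19 ± 0.13, -0.37 ± 0.20 and 0.16 ± 0.13. Apoc2 had 7.79 and 7.54 with DCI, against 7.77 and 8.29 without, and Apoc3 had 7.59 and 7.76, against 7.41 and 7.61, so that the groups overlapped for both.

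**Figure D2:**
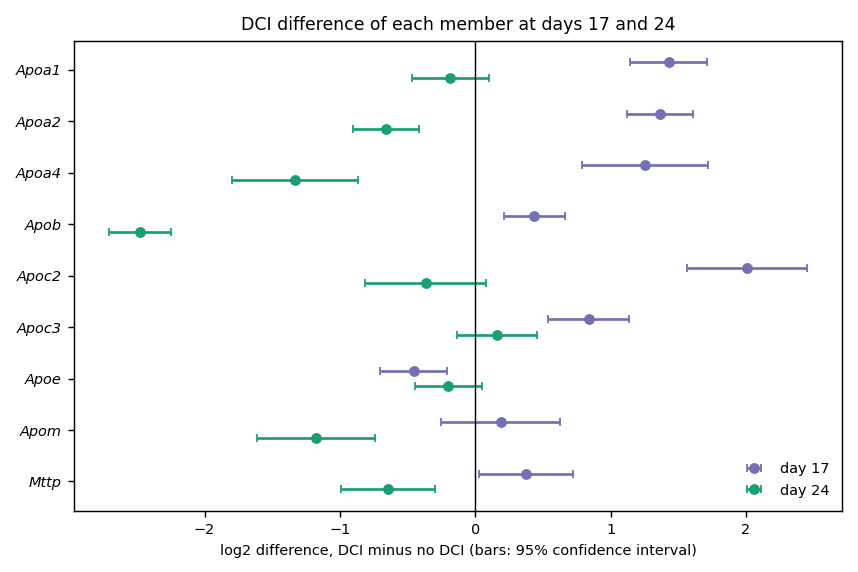
DCI minus no DCI for each of the 9 genes at day 17 (purple) and day 24 (green), 2 arrays against 2 on each day, on the log2 scale. Points are limma estimates and bars are 95% confidence intervals not adjusted over genes. The day 24 point lies left of the day 17 point for 8 of the 9 genes, with Apoe the exception. The day 24 difference was the lower one for 9538 of all 18193 genes.

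The DCI difference itself changed between the days for 6 of the 9 genes, each with a lower value at day 24, where 1.62% of all genes changed, 0.330% upwards and 1.29% downwards. The genes were proposed with earlier results of these data in view that include this change for Apob and Apoa4, so the count is a description. Day 24 minus day 17, the change was -2.92 ± 0.14 for Apob (adjusted p = 1.64e-05), -2.58 ± 0.30 for Apoa4, -2.38 ± 0.28 for Apoc2, -2.03 ± 0.16 for Apoa2, -1.61 ± 0.18 for Apoa1 and -1.36 ± 0.28 for Apom (adjusted p = 0.0395). The 6 genes did not get there in the same way. For Apoa1, Apoa2 and Apoc2 the level without DCI did not pass between day 17 and day 24 (-0.24, -0.15 and 0.36), and the level with DCI fell by 1.86, 2.18 and 2.01 on the log2 scale. For Apoa4 the level with DCI did not pass between the days (-0.33 ± 0.21, adjusted p = 0.272) while the level without DCI rose. For Apob, by its brighter probe set, both moved, with a fall of 2.07 with DCI beside the rise without it. Mttp stood at -1.02 ± 0.22 (adjusted p = 0.0522) and Apoc3 at -0.67 ± 0.19 (adjusted p = 0.128). For the brighter Apom probe set, leaving out any 1 of 7 of the 8 arrays of days 17 and 24, all but the day 17 array with DCI alone, gave adjusted p-values of 0.102 to 0.174 (-0.99 to -1.49). The other Apom probe set, tested by itself, changed by -2.31 ± 0.24 between the days (adjusted p = 0.0032). The dimmer Apob probe set stood at -0.71 ± 0.27 and did not pass (adjusted p = 0.358).

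Between day 17 and day 24 with DCI, 6 of the 9 genes fell and 2, Apoc3 and Apoe, rose, where 31.1% of all genes changed, 20.3% downwards and 10.9% upwards. Mttp fell by 1.11 and Apom by 1.04 on the log2 scale. Apoc3 was higher at day 24 by 0.65 ± 0.13 (adjusted p = 0.00396).

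Ordered by the mean of each pair of arrays, Apob ran from day 8 (8.19) through day 24 without DCI (7.93), day 17 with DCI (7.52) and day 17 without DCI (7.08) to day 24 with DCI (5.45). Its first 2 positions did not differ past the threshold. Apoa1 ran from day 17 with DCI (11.69) through day 17 without (10.26), day 24 without (10.02) and day 24 with DCI (9.84) to day 8 (9.70). Of these only the first 2 neighbours were shown to differ, and day 24 with DCI against day 8 was not tested. Apoa4 ran from day 24 without DCI (9.82) through day 17 with DCI (8.81), day 24 with DCI (8.49) and day 17 without (7.56) to day 8 (5.52), and the middle pair of DCI values did not pass.

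Apoe had the smallest change of DCI difference between the days. It was the only one of the 9 genes lower with DCI at day 17, with 11.24 with KGF and DCI and 11.36 with DCI alone, against 11.77 with KGF and 11.73 in the control (-0.46 ± 0.11, adjusted p = 0.0326). The call was lost when any 1 of the 4 day 17 arrays was left out (-0.35 to -0.56, adjusted p = 0.0806 to 0.307), and without either day 24 array with DCI (-0.46, adjusted p = 0.0598 and 0.0596). At day 24 it read 11.77 and 11.75 with DCI, against 11.89 and 12.03 without (-0.20 ± 0.11, adjusted p = 0.286), and the change between the days was 0.26 ± 0.16 (adjusted p = 0.536). Markers of macrophages, which secrete apolipoprotein E, were lower with DCI on both days. Of 18 such markers 17 fell on each day, where 3.14% of all genes fell at day 17 and 9.79% at day 24. The medians of the 18 markers were -1.58 at day 17 and -3.01 at day 24. Their summed level on the log2 scale was 13.00 and 13.19 with DCI, against 14.46 and 14.45 without, at day 17, and 12.54 and 12.79, against 14.39 and 14.70, at day 24. The part of macrophages in the Apoe levels was not tested.

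KGF changed none of the 9 genes past the threshold in the 5 matched pairs of arrays. Over all genes 0.0550% passed, 10 genes, with 0.0495% higher and 0.00550% lower. At an unadjusted p under 0.05 in limma, 5 of the 9 differed with KGF in either direction, all of them lower. Of all 18193 genes, 1927 met that threshold in either direction. Apob was lower with KGF in 5 of 5 pairs (-0.22 ± 0.07, adjusted p = 0.257) and Apoc3 likewise in 5 of 5 (-0.33 ± 0.09, adjusted p = 0.208). Apoa4 was at -0.49 ± 0.13 (adjusted p = 0.227). Its pairs differed by 0.035 at day 8, by -0.73 with DCI and -1.10 without at day 17, and by -0.19 with DCI and -0.45 without at day 24. On the 8 arrays of days 17 and 24 alone Apoa4 passed, at -0.615 (adjusted p = 0.0406), in a fit where 249 of all genes (1.37%) passed in place of 10. No member passed for the KGF by DCI or the KGF by day interaction, where 0 genes and 9 genes (0.0495%, of which 0.0110% higher and 0.0385% lower) of all did by limma, and 457 and 1675 had an unadjusted p under 0.05. The unadjusted 95% interval of the KGF by DCI interaction ran from 0.10 to 0.96 for Apoc2 and from -0.22 to 0.85 for Apoa4. In single arrays, KGF with DCI minus that day's control, Apoa1 differed by 1.02 at day 17 and -0.34 at day 24, Apoc2 by 1.52 and -0.50, and Apob by 0.23 and -2.71.

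Of the 9 genes, 5 lie in 2 clusters of neighbouring apolipoprotein genes. In the RefSeq gene table of assembly GRCm38.p6, Apoa1, Apoc3, Apoa4 and Apoa5 follow each other on chromosome 9, and Apoc2, Apoc4, Apoc1 and Apoe on chromosome 7, with 0 other coding genes between neighbours. On chromosome 9 Apoa1, Apoc3 and Apoa4 all rose at day 17, while at day 24 Apoa4 alone of them fell, and Apoa5, for an activator of triglyceride clearance, lay between 5.04 and 5.57 on all arrays and passed on neither day. On chromosome 7 Apoc1, for another small exchangeable apolipoprotein, rose on both days, by 0.79 ± 0.10 and 0.84 ± 0.10, and its change between the days was 0.05 ± 0.14 (adjusted p = 0.933). Apoc2, at the end away from Apoe, rose at day 17 alone, and Apoc4, next to it, stood at 0.57 ± 0.16 (adjusted p = 0.0591) and -0.42 ± 0.16 (adjusted p = 0.107).

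**Figure D3:**
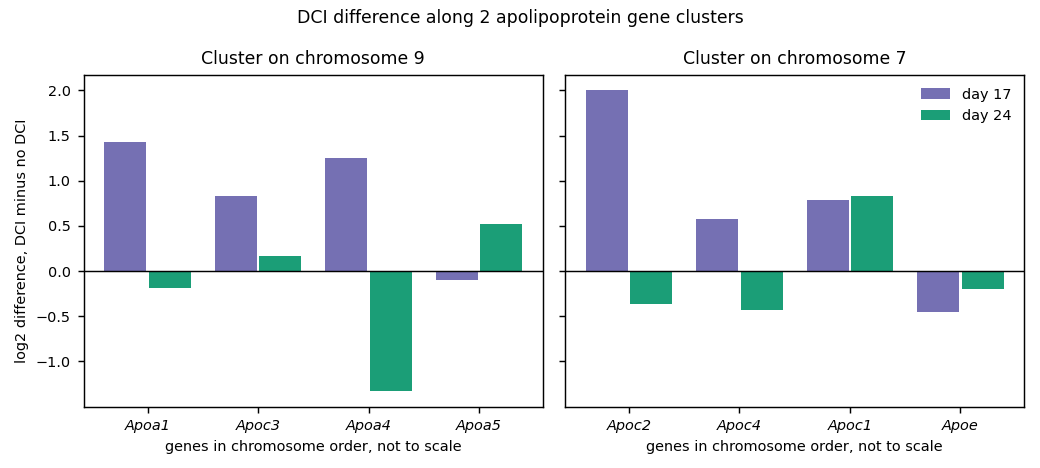
DCI minus no DCI on the log2 scale at day 17 (purple) and day 24 (green) for the genes of the apolipoprotein clusters of chromosomes 9 and 7, placed in chromosome order and not to scale. Bars start at 0. Apoa1, Apoc3 and Apoa4 are above 0 at day 17, and Apoa4 has the lowest day 24 bar of the chromosome 9 cluster, while Apoc1 has bars of like height on both days.

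Promoter windows are shown for 4 of these genes, Apob and Apoa4, which had the 2 lowest DCI differences at day 24, and Apoa1 and Apoc2, which had the 2 highest at day 17. The windows are RefSeq sequence of GRCm38.p6 from 250 bases before to 50 after the gene start, and 8 of the 9 genes had one. Capitals mark the motif TATAAA, which places the start of transcription in many promoters, and CAAAGNNCA (a form of the site of the liver and gut factor HNF4), searched on both strands, which do not overlap here.
Apob, chr12:7977427-7977726, plus strand: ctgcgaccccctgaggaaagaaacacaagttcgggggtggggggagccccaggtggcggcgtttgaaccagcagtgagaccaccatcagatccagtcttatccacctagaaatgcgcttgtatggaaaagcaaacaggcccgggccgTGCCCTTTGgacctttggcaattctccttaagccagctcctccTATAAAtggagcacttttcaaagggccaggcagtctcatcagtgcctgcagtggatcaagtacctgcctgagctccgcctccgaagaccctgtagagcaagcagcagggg
Apoa4, chr9:46240594-46240893, plus strand: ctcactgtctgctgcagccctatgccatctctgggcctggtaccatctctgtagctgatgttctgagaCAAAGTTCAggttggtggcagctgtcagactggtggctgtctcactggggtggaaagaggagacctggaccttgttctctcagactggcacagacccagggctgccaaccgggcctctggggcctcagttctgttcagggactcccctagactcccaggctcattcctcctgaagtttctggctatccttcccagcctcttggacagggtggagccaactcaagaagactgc
Apoa1, chr9:46228380-46228679, plus strand: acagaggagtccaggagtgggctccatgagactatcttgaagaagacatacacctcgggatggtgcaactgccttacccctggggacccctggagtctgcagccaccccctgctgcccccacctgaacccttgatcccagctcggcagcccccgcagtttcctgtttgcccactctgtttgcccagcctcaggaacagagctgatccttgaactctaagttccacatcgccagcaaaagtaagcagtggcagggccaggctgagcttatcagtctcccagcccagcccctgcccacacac
Apoc2, chr7:19677892-19678191, minus strand: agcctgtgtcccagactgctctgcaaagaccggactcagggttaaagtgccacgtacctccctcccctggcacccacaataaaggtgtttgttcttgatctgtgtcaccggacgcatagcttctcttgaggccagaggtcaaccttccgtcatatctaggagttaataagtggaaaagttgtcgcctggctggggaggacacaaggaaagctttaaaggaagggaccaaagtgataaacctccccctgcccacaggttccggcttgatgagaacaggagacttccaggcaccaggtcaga
CAAAGNNCA was found in the windows of Apob, on the minus strand, and Apoa4, on the plus strand, and in none of the other members' windows, where 6.36% of all 32851 windows of that length hold it. TATAAA was found in the window of Apob and in 1 of several windows each of Apoa2 and Apoe, against 13.6% of all windows. Relative to the gene start its matches began at -60 in Apob, at -212 in Apoa2 and at -100 and -96 in Apoe. Whether any match places a start of transcription was not tested. The form CAAAGNNCA was taken after the stricter CAAAGTCCA and CAAAGGTCA (0.95% of windows) had matched no member. A consensus of HNF1 (0.00913%), a consensus of the glucocorticoid receptor (3.11%) and the cAMP response element TGACGTCA (1.79%) were in no member's window.

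Among genes that act with the 9, 1 of 19 genes of assembly and export rose and 1 fell with DCI on each day, where 7.60% of all genes changed at day 17 and 16.4% at day 24. P4hb, for the protein disulfide isomerase that is the partner subunit of the transfer protein, stood at 0.05 ± 0.08 at day 17 and 0.20 ± 0.08 at day 24, and Sar1b, for a GTPase of vesicles that leave the endoplasmic reticulum with lipoprotein, at 0.09 and 0.08, none past the threshold. The gene that fell on both days was Apobec1, for the enzyme that edits Apob mRNA to its short form. It read 7.09 with KGF and DCI and 7.27 with DCI alone, against 9.45 with KGF and 9.48 in the control, at day 17 (-2.28 ± 0.15, adjusted p = 9.62e-06), and 7.70 and 7.50, against 8.90 and 9.22, at day 24 (-1.46 ± 0.15). Macrophages also express Apobec1, and their markers moved as given above. The part of macrophages in the Apobec1 levels was not tested. Cideb, for a lipid droplet protein of very low density lipoprotein loading, rose at day 17 (0.81 ± 0.18), as did Mia3, of cargo export, at day 24 (0.31 ± 0.09).

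Of 13 other apolipoprotein and carrier genes 3 rose at day 17 and 4 at day 24, and none fell. Over all genes 4.46% rose and 3.14% fell at day 17, and 6.58% rose and 9.79% fell at day 24. Apoh, for beta-2 glycoprotein I, rose by 1.72 ± 0.21 and 0.96 ± 0.21, with another probe set at -0.07 and -0.04. Saa1, for an acute-phase apolipoprotein, rose by 0.55 and 1.25. Its means without DCI were 3.11 at day 17 and 3.41 at day 24, under the lower quartile of all genes. Clu, for clusterin, lay between 9.91 and 12.91 over the arrays and passed on neither day. Of 16 genes of triglyceride and cholesteryl ester supply, 2 rose and 2 fell at day 17 and 2 rose and 5 fell at day 24. Dgat2, for an enzyme of triglyceride synthesis, rose by 0.90 ± 0.09 and 0.53 ± 0.09. The fatty acid binding protein genes Fabp1 and Fabp2, of liver and gut, fell at day 24, by 1.30 and 1.60 on the log2 scale, after 0.44 and 0.42 at day 17, which did not pass.

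Of 14 genes of high density lipoprotein remodelling and of lipases, 1 rose and 3 fell at day 17 and 2 rose and 3 fell at day 24. The shares of all genes were 4.46% up and 3.14% down at day 17, and 6.58% up and 9.79% down at day 24. Abca1, for the transporter that passes cholesterol to apolipoprotein A-I, fell on both days (-0.39 ± 0.07 and -0.74 ± 0.07), with another probe set at -0.03 at day 24, and Lcat, for the enzyme that esterifies that cholesterol, rose at day 24 (0.66 ± 0.16). Lpl and Pltp did not pass on either day. Of 13 receptor genes 3 rose at day 17, while at day 24 2 rose and 5 fell. Cubn and Lrp2, whose products cubilin and megalin take up high density lipoprotein proteins in the yolk sac, differed by 1.38 ± 0.19 and 0.09 ± 0.17 at day 17, of which the first passed, and both fell at day 24, by 1.37 and 1.16 on the log2 scale. Both changes between the days passed, at -2.75 ± 0.27 for Cubn and -1.25 ± 0.25 for Lrp2 (adjusted p = 0.00117 and 0.0325).

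Of 24 transcription factor genes known to act on apolipoprotein genes, 4 rose at day 17, 2 rose at day 24 and none fell. Of all genes 4.46% rose at day 17 and 6.58% at day 24, so the day 24 count is near that of all genes. Hnf4a rose at day 17 (0.84 ± 0.16, adjusted p = 0.00814) and did not pass at day 24 (0.49 ± 0.16, adjusted p = 0.0629), with a change between the days of -0.35 ± 0.22 (adjusted p = 0.558). One of its other probe sets gave 0.01 and -0.07. The liver and gut factor Foxa3 rose by 1.00 ± 0.13 and 1.27 ± 0.13. Foxa2, a factor of endoderm, stood at 0.46 and 0.51, and the sterol sensor Nr1h3 at -0.31 and -0.16, none past the threshold. For 0 of the 24 did the DCI difference change between the days past the threshold, which 1.62% of all genes passed, so the count is near that of all genes.

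Markers of the cell types that make lipoproteins moved on the same arrays. Of 15 visceral endoderm and yolk sac markers 7 rose with DCI and none fell at day 17, and none rose and 6 fell at day 24. Over all genes 4.46% rose and 3.14% fell at day 17, and 6.58% rose and 9.79% fell at day 24. Cubn, Lrp2, Amn and Dab2 are also among the receptor genes given above, and each of them fell at day 24, so the 2 lists are not separate results. Afp, for alpha-fetoprotein, stood at 0.73 ± 0.15 and -0.88 ± 0.15, both past the threshold, with 1 of its other 4 probe sets at 0.16 and 0.22. Summed levels add linear values before the log2 is taken, so bright genes weigh most. Among yolk sac markers Afp and Ttr were the brightest at day 17 with DCI, with means of 12.89 and 12.25. The summed level of the yolk sac markers was 14.15 and 14.14 with DCI, against 13.56 and 13.70 without, at day 17. At day 24 it was 13.60 and 13.28 with DCI, against 13.92 and 13.95 without. Hepatocyte markers rose in 15 of 18 cases at day 17 and in 10 at day 24, where 1 fell. Alb, for albumin, rose on both days, by 1.06 ± 0.11 and 0.48 ± 0.11, and the summed level was 13.90 and 13.85, against 12.37 and 12.74, at day 17 and 13.05 and 13.10, against 12.49 and 12.51, at day 24. The hepatocyte markers with the largest rises at day 17 were Cps1 (3.06), Tdo2 (2.475), Hpd (2.35) and Ahsg (2.13). The Tdo2 mean without DCI at day 17 was 2.64, under the lower quartile of all genes. Another of these markers, Cyp7a1, lay between 2.71 and 3.22 on all 10 arrays, under the lower quartile of all genes. Of 12 enterocyte markers 4 rose at day 17, and 3 rose and 1 fell at day 24. Their summed level was 10.63 and 11.38 with DCI, against 9.58 and 10.37 without, at day 17, and 11.33 and 11.50, against 10.40 and 10.38, at day 24, with Cdx1 and Lct between 3.01 and 3.85 on all arrays. Of 9 glial markers 2 rose at day 17, and 3 rose and 2 fell at day 24, and of 8 erythroid markers 0 passed on either day. The DCI difference changed between the days for 8 of 15 yolk sac, 5 of 18 hepatocyte and 8 of 18 macrophage markers. Each of these was lower at day 24, where 1.29% of all genes were. No enterocyte, glial or erythroid marker passed for that change. The part of these cell types in the levels of the 9 genes was not tested.

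**Figure D4:**
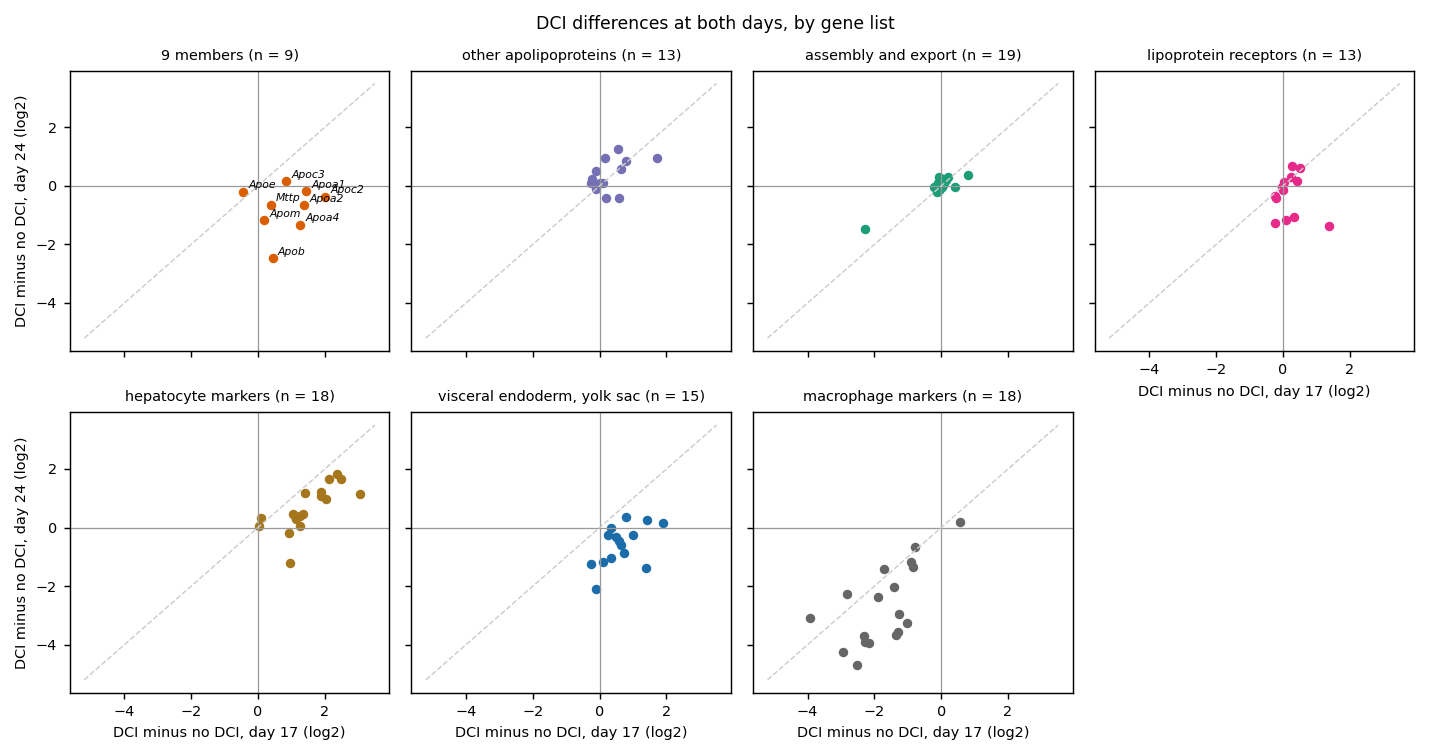
DCI minus no DCI on the log2 scale at day 17 (horizontal) and day 24 (vertical), 1 point per gene, for the 9 genes and for 6 of the lists. The dashed line marks equal differences on both days. Of the 9 genes 8 lie below the line, as do all 15 yolk sac markers. So do 16 of 18 hepatocyte markers and 14 of 18 macrophage markers. Of all 18193 genes, 9538 would lie below it. Hepatocyte markers lie mostly in the upper right and macrophage markers in the lower left.

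Over the 10 arrays, and among 2187 other genes with a range of at least 2 on the log2 scale, the profiles most like Apob were those of Car4 (Pearson r = 0.963), Spink1 (0.931), Gimap4, Icam2 and Tmem108. Those most like Apoa1 were Fmo5 (0.956), Serpinf2, Cps1, Gucy2c and Tfpi2, and those most like Apoe were Shtn1 (0.995), Ctsd, Enpp5, Slc48a1 and Ifngr2. All share the 10 arrays and their time course, and without the day 8 arrays 2 of each 5 stayed among the 5 most alike. By Spearman's rho over the 10 arrays 2 of the 5 stayed for Apob, 1 for Apoa1 and 0 for Apoe. Among the 9 genes themselves, r was 0.93 for Apoa2 with Apoc2, 0.94 for Apoa4 with Apoc3, 0.82 for Apob with Mttp and 0.83 for Apob with Apom, and -0.85 for Apom with Apoe and with Apoc3.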

How the data were processed

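RNA from 10 cultures of differentiating mouse embryonic stem cells was hybridised to 10 one-colour expression arrays, 1 per condition. Per the submitters' processing notes, the authors used RMA for the log2 expression values they deposited. RMA corrects background, normalises between arrays and summarises probes. The sources used here give neither its version nor its settings. Of 45101 probe sets 34945 carried 1 gene symbol in the platform annotation, 932 several and 9160 none, and 64 were controls. The first class gave 18193 genes, each by its brightest probe set.

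Log2 values were fitted with limma 3.58.1 in R 4.3.3, with 5 groups of day and DCI and an additive KGF term over 10 arrays (4 residual degrees of freedom), empirical Bayes moderation with a mean trend and Benjamini-Hochberg adjustment. The KGF interactions used 8 arrays (2 residual degrees of freedom). Figures were drawn with matplotlib 3.10.9. The fit was also run on simulated data with independent normal noise and a shift in the day 24 arrays with DCI. That simulation held no KGF effect and no effect shared by a culture, so it does not test the design. The 9 members, the 12 other lists and the named genes were chosen with earlier results of these data known. Named genes were the members, up to 4 genes past the threshold with the largest DCI differences in a list, from which the text takes examples, and a set of known roles. Of 192 other listed genes 174 were measured. Promoter windows came from RefSeq. Alternatives were the moderation, filters, probe set rules, model terms, a second quantile normalisation, thresholds and each array left out.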

Additional observations from a re-analysis of the deposited data

Results flagged for a closer look

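For 6 of the 9 genes the DCI difference at day 24 minus that at day 17 passed a test of the change itself, by limma over 10 arrays. It was -2.917 for Apob, -2.582 for Apoa4, -2.375 for Apoc2, -2.027 for Apoa2, -1.614 for Apoa1 and -1.365 for Apom. The members were chosen with this pattern known, so these values describe it. Of all genes 1.62% passed that test. The Apom call did not hold under all alternatives, where its value ran from -1.84 to -0.99.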

How the results depend on the processing

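No analysis paired by replicate number was possible because the labels give no such numbers and each condition has 1 array. The KGF term compares arrays matched by day and DCI. Of 44 member values past the threshold, 903 values under alternatives included 833 with the same direction and side of the threshold, 66 with the same direction that no longer passed and 4 that reversed. All 4 reversals came from the additive model, which by construction gives DCI 1 difference for both days: Apoa4 (-0.041) and Apob (-1.021) for DCI at day 17, Apoa2 (0.354) for DCI at day 24, and Apob (-0.61) for day 24 against day 17 without DCI. In that model the members past the threshold numbered 2 for DCI at day 17 (7 in the 5-group model), 2 for DCI at day 24 (5), 5 for day 24 against day 17 without DCI (3) and 5 for the same days with DCI (8). Of all genes 15.4% passed for DCI in that model, against 7.60% at day 17 and 16.4% at day 24 in the 5-group model, and 37.3% for day 24 against day 17, against 24.2% without DCI and 31.1% with DCI. Asking for a 2-fold size in addition left 4 for DCI at day 17 and 3 at day 24. The member counts under this size rule and with an array left out are not set against shares of all genes here. With 8 arrays KGF had 1 member past the threshold, Apoa4, in place of 0, and 249 of all genes in place of 10. Leaving out each array in turn gave 3 to 7 members for DCI at day 17, the 3 without the array with DCI alone, 4 to 6 for DCI at day 24, 5 to 7 for the change between days, 0 to 1 for KGF and 0 to 1 for KGF by day. A second quantile normalisation put the median difference of all genes between day 17 and day 8 at -0.109, against -0.013 without it. With mean values over probe sets 2 transcription factor genes rose at day 17, against 4 with the brightest probe set. Without replicate arrays the spread rests on pairs that differ in KGF, and 4 residual degrees of freedom limit what can be seen.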
